A study of Mus musculus with 4 samples.

Results

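The genes described here act in the uptake and transport of vitamin B12 and bile acids in the distal small intestine, or in the response to bile acids. They are 10 of 29871 gene rows: CUBN, AMN, LRP2, TCN2, SLC10A2, FABP6, NR1H4, NR0B2, FGF15 and GPBAR1, as the table spells them. The genes were chosen by name, with their values in this comparison of genotypes already known. Their levels and differences are therefore a description and carry no test.

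RNA came from adenomas of the mouse small intestine and was sequenced in 4 libraries. The 2 control libraries had the genotype APC Min/+, and the 2 knockout libraries the genotype PAF KO; APC Min/+. All adenomas thus carried the Min allele, a truncating mutation of the tumour suppressor Apc that causes intestinal adenomas in mice, and there was no normal mucosa beside them. Age, the stretch of intestine sampled, the altered part of the PAF gene, and whether adenomas or animals were pooled are not stated by the labels. Levels are in FPKM, a fragment number divided by transcript length and sequencing depth, so that genes can be compared per length.

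Dietary B12 bound to intrinsic factor is taken up by a receptor made of cubilin (Cubn), which binds the ligand, and amnionless (Amn), which anchors cubilin in the apical membrane. Megalin (Lrp2) works beside cubilin in kidney, and transcobalamin (Tcn2) carries the vitamin in blood. Bile acids enter ileal enterocytes through the sodium-dependent transporter Slc10a2, are bound in the cytosol by Fabp6, and leave through the heterodimer of Slc51a and Slc51b. Inside the cell they activate the nuclear receptor FXR (Nr1h4), which induces Fgf15, a hormone that lowers bile acid synthesis in liver, and Nr0b2, a corepressor. Gpbar1 is a bile acid receptor of the cell surface.

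The sequence upstream of 3 of these genes is shown because Fabp6 and Slc10a2 shared a pattern across the libraries that Cubn did not. The sequences are from RefSeq on GRCm38.p6, written 5′ to 3′ on the strand of the gene, and end at or before the base ahead of the gene's start. Fabp6 lies at chr11:43601563-43601812, Slc10a2 at chr8:5105352-5105537 and Cubn at chr2:13491877-13492126, all on the minus strand. Capitals mark matches to AGGTNANTNACCT, an inverted repeat spaced by 1 base as FXR binds, and to TTAATNATTAA, an AT-rich inverted repeat.
Fabp6: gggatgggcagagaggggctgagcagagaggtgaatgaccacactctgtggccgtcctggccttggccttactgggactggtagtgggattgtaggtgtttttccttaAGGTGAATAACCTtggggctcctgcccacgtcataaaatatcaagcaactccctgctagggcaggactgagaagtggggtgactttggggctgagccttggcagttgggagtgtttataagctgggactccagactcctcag
Slc10a2: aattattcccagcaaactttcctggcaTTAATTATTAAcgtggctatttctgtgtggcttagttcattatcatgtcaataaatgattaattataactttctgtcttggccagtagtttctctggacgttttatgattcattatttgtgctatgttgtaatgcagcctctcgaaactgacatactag
Cubn: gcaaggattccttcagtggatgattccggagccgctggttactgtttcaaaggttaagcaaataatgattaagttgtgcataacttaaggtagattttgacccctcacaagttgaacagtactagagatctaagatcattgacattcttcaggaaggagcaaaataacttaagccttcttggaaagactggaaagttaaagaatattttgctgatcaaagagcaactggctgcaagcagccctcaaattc

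The Fabp6 match began 142 bases before the RefSeq start and the Slc10a2 match 223 bases before it. The Slc10a2 sequence shown stops 64 bases short of the RefSeq start, since the gene starts further upstream in GENCODE and bases from there on were left out. Both motifs read the same on both strands, do not overlap one another in these windows, and were written after the sequences had been read. In the 250 bases before the start, AGGTNANTNACCT was found in 6 of 32851 promoters (0.0183%) and TTAATNATTAA in 38 (0.116%). A GATA motif, AGATAA on either strand, was found in 9.99% of promoters, and among the 8 genes of the group in the promoter table only Nr1h4 held it. Tcn2 and Fgf15 had no entry. A match is a description of letters and not of binding.

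The libraries held about 13200000 and 17500000 fragments for the controls and 15400000 and 24100000 for the knockouts, as estimated from the smallest steps in the values. The control libraries varied around each other by 2.98 times the variance of counting noise and the knockout libraries by 115 times, so the control spread may be technical. The PAF gene, taken as Pclaf from knowledge of the study, stood at 17.9 and 17.8 FPKM in control libraries, 4.13 in knockout 1 and 11.4 in knockout 2. Knockout 1 thus held 23.2% and knockout 2 still 63.9% of the control mean. Without knowing which part was altered, this level does not settle the labels, and knockout 1 and knockout 2 name the libraries labelled PAF KO. The X-inactivation transcript Xist was at 46.4 FPKM in knockout 2 and at most 0.00861 in the other 3 libraries, so the knockout libraries also differed in sex. Summed FPKM of 6 genes of all epithelium was 6404 and 6292 in control libraries, 7095 in knockout 1 and 7555 in knockout 2. Across 13716 tested rows, limma called 10 between genotypes (0.0729%), and 1810 had an unadjusted p under 0.05 (13.2%).

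The B12 receptor transcripts were lower in both knockout libraries than in both controls. Cubn stood at 12.93 and 13.02 FPKM in control libraries, 0.875 in knockout 1 and 1.62 in knockout 2. The knockout libraries thus held 6.75% and 12.5% of the control mean, and the groups did not overlap. On the log2(FPKM + 1) scale, on which all log2 differences below are given, the difference was -2.66 (SE 0.240, n = 2 per group). Behind these levels stood about 151 fragments in knockout 1 and 440 in knockout 2, and 1928 or more in each control.

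Amn, the membrane anchor of cubilin, stood at 21.0 and 17.9 FPKM in control libraries, 6.89 in knockout 1 and 3.64 in knockout 2. These were 35.5% and 18.7% of the control mean, again with no overlap, and a log2 difference of -1.75 (SE 0.325). The order of the knockout libraries was opposite for the 2 subunits, with Cubn lower in knockout 1 and Amn lower in knockout 2. The ratio of Cubn to Amn FPKM was 0.615 and 0.728 in the controls, 0.127 in knockout 1 and 0.445 in knockout 2. Per unit of Vil1, a structural protein of enterocyte microvilli, Cubn stood at 0.0408 and 0.0414 in control libraries, 0.00285 in knockout 1 and 0.00589 in knockout 2.

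Megalin was almost without signal. Lrp2 read 0.0182 and 0.0137 FPKM in control libraries, about 3.7 fragments each, and was listed at 0 in both knockouts, so no fold is given. A list of 5 kidney tubule genes, cells in which megalin is abundant, summed to 0.158 to 0.209 FPKM in control libraries and to 0.241 to 0.379 in the knockouts, and its member Slc5a2 was listed at 0 in all libraries.

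Transcobalamin differed less. Tcn2 stood at 76.6 and 79.9 FPKM in control libraries, 70.2 in knockout 1 and 41.7 in knockout 2, or 89.7% and 53.2% of the control mean. The groups did not overlap, with knockout 1 close below the controls, and the log2 difference was -0.52 (SE 0.309). It was -0.15 in knockout 1 alone and -0.89 in knockout 2 alone.

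**Figure D1:**
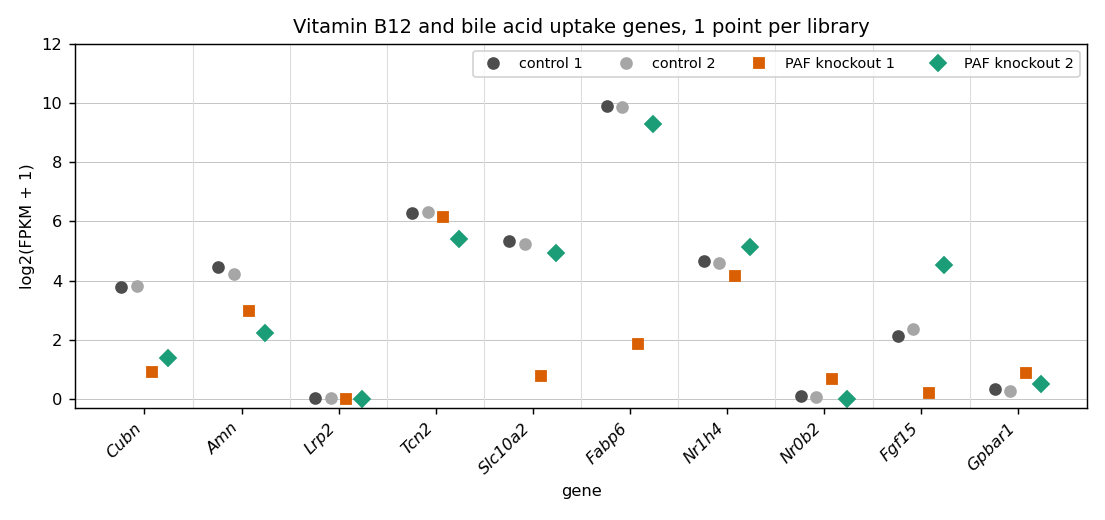
Level of each B12 and bile acid uptake gene as log2(FPKM + 1) on the vertical axis, with 1 point per library. Cubn and Amn lie below the controls in both knockouts, while Slc10a2 and Fabp6 lie far below them in knockout 1 (0.708 and 2.59 FPKM) and near them in knockout 2 (29.6 and 634 FPKM).

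The transcripts of bile acid uptake separated the knockout libraries from each other. Slc10a2, the apical transporter, stood at 39.8 and 37.0 FPKM in control libraries, 0.708 in knockout 1 and 29.6 in knockout 2. Knockout 1 held 1.84% of the control mean, a level 54.2-fold lower, and knockout 2 held 77.0%. Both knockouts lay below both controls, but knockout 2 lay closer to the controls than to knockout 1. The log2 difference of -2.45 (SE 1.52) became -0.37 without knockout 1 and -4.53 without knockout 2.

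Fabp6, the cytosolic bile acid carrier, showed the same split at a higher level. It stood at 956 and 926 FPKM in control libraries, above 99.8% of all rows, at 2.59 in knockout 1 and at 634 in knockout 2. Knockout 1 held 0.276% of the control mean (363-fold lower, about 19 fragments) and knockout 2 held 67.4%. The log2 difference was -4.30 (SE 2.71), with -8.03 in knockout 1 and -0.57 in knockout 2. The ratio of Fabp6 to Slc10a2 FPKM was 24.0, 25.0 and 21.4 in the controls and knockout 2, and 3.66 in knockout 1. In these bulk samples, fewer cells with a transcript and less transcript per cell cannot be told apart.

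FXR itself did not follow that split. Nr1h4 stood at 24.5 and 23.0 FPKM in control libraries, 16.9 in knockout 1 and 34.5 in knockout 2. The controls lay between the knockouts, and the log2 difference was 0.03 (SE 0.389). Knockout 1 thus kept 71.1% of the control level of the receptor beside 0.276% of that of Fabp6.

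Fgf15, the hormone that FXR induces, lay on opposite sides of the controls in the 2 knockout libraries. It stood at 3.39 and 4.14 FPKM in control libraries, 0.148 in knockout 1 and 21.8 in knockout 2. Knockout 1 held 3.93% of the control mean, about 4.1 fragments, and knockout 2 was 5.80-fold higher, with about 951 fragments. The log2 differences were -2.05 and 2.26, so their mean of 0.11 (SE 1.57) describes neither library. Per unit of Nr1h4, Fgf15 was 0.138 and 0.180 in the controls, 0.00878 in knockout 1 and 0.633 in knockout 2.

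The remaining genes of the bile acid group, Nr0b2 and Gpbar1, were near the limit of detection. Nr0b2, the corepressor, read 0.0753 and 0.0567 FPKM in control libraries, about 1.1 fragments each. It read 0.585 in knockout 1, about 10 fragments, and was listed at 0 in knockout 2. Gpbar1, the surface receptor, read 0.263 and 0.198 FPKM in control libraries, 0.831 in knockout 1 and 0.409 in knockout 2. Both knockouts lay above both controls for Gpbar1, on about 14 and 11 fragments against about 3.7 in each control. A list of 7 macrophage genes, a cell type that also expresses Gpbar1, summed to 81.3 to 85.7 FPKM in control libraries, 82.6 in knockout 1 and 208 in knockout 2. Lyz2 held most of this sum in knockout 2, at 157.5 FPKM against 51.5 and 44.5 in the controls. Of the 6 macrophage genes tested, 2 lay above both controls in both knockouts, 1 lay below and 3 overlapped. All 7 macrophage genes had signal, and their part in the Gpbar1 level was not tested.

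Of the 10 genes, 7 had a mean of at least 1 FPKM and entered the fit, while Lrp2, Nr0b2 and Gpbar1 did not. Of the 7, 5 lay below the controls in both knockouts without overlap, 0 lay above and 2 straddled them. Among all tested rows, 30.2% lay below without overlap and 21.5% above. limma called 0 of the 7 after adjustment, and 2 had an unadjusted p under 0.05. The genes were picked with this contrast known, so nothing is read from these counts.

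Genes of the proximal small intestine, unlike the bile acid uptake genes, were mostly high in knockout 1 and low in knockout 2. In knockout 1, 8 of 10 listed genes of the proximal small intestine stood above both controls and 2 below. In knockout 2, 1 stood above and 9 below. The share of all tested rows beyond both controls in a single library was not counted, here or for the lists below. The controls lay close together (median absolute log2 difference 0.088), so small differences also fall outside them. The median log2 difference of the proximal genes was 1.31 in knockout 1 and -1.1 in knockout 2, against -0.11 and 0.09 over all tested rows. The summed level of the proximal genes was 2571 and 2850 FPKM in control libraries, 7667 in knockout 1 and 976 in knockout 2, and none was at 0 in all libraries. limma called 0 of the 10 between genotypes (1 at an unadjusted p under 0.05), with a median log2 difference of 0.18 against 0.00 over all tested rows.

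Individual genes showed the size of this split. They were picked after their values had been seen. Gata4, a transcription factor of the proximal small intestine that is known to keep ileal genes off there, stood at 8.72 and 8.16 FPKM in control libraries, 56.3 in knockout 1 and 2.25 in knockout 2. Fabp1, the fatty acid binding protein of proximal enterocytes, stood at 49.7 and 50.4 FPKM in control libraries, 2367 in knockout 1 and 40.5 in knockout 2. Knockout 1 was thus 47.3-fold above the control mean for Fabp1 where it was 363-fold below it for Fabp6.

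Among further genes, Lct, Apoa4 and Nts separated the same libraries. Cck stood above both controls in both knockouts, and Pyy below both controls in both. Lct, the lactase of the proximal brush border, stood at 2.36 FPKM in both controls, 36.3 in knockout 1 and 0.0432 in knockout 2. Apoa4, an apolipoprotein of lipid absorption, stood at 948 and 972 FPKM in control libraries, 3251 in knockout 1 and 10.2 in knockout 2. Nts, a gut hormone of the ileum, stood at 11.4 and 11.0 FPKM in control libraries, 0.730 in knockout 1 and 9.84 in knockout 2, the same order as Slc10a2 and Fabp6. Nts comes from a list of 8 enteroendocrine genes that did not share one order, with 3 of 7 tested genes above both controls and 4 below in each knockout. Cck, a hormone of the proximal intestine, stood at 7.57 and 9.36 FPKM in control libraries, 23.9 in knockout 1 and 11.1 in knockout 2. Pyy, a hormone of the distal gut, stood at 35.6 and 40.2 FPKM in control libraries, 10.1 in knockout 1 and 14.4 in knockout 2.

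**Figure D2:**
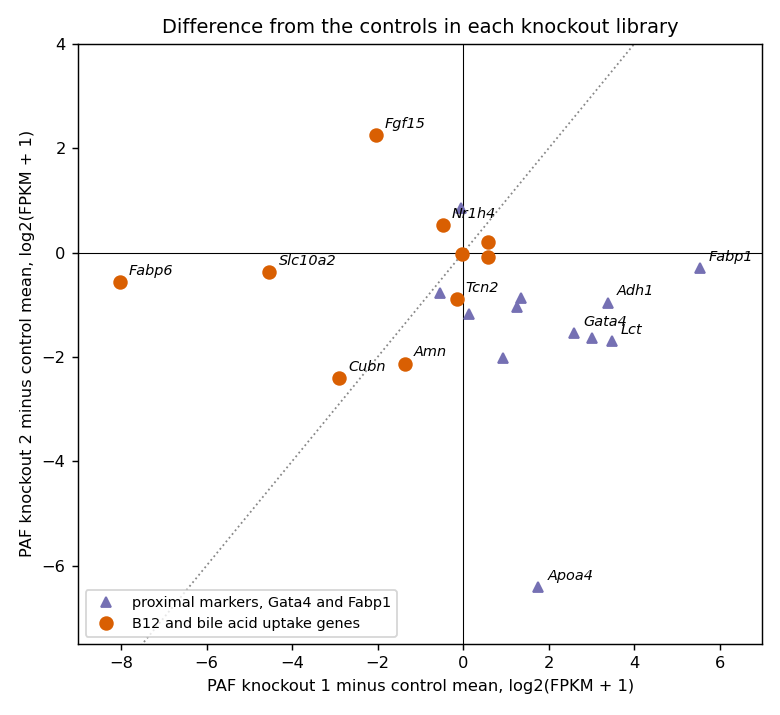
Difference from the control mean in knockout 1 (horizontal axis) against knockout 2 (vertical axis), both on the log2(FPKM + 1) scale, for B12 and bile acid uptake genes (circles) and for proximal markers with Gata4 and Fabp1 (triangles). The dotted line marks equal differences. Cubn lies near it at -2.90 and -2.41, while Fabp6 lies at -8.03 and -0.57 and Fgf15 at -2.05 and 2.26.

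Cubn and Amn were not split in this way, being at most 35.5% of the control mean in either knockout. The part that the sampled stretch of intestine, sex or cell composition had in any of these differences was not tested. Of 17 listed enterocyte genes, 11 lay below both controls in both knockouts, 0 above, and 6 overlapped. Among all tested rows, 30.2% lay below and 21.5% above. The median log2 difference of the enterocyte genes was -0.82, and limma called 0 of them. All 17 stood below both controls in knockout 2, while 5 stood above and 11 below in knockout 1. The summed level of the enterocyte genes was 3265 and 3256 FPKM in control libraries, 3293 in knockout 1 and 1585 in knockout 2. All 6 listed fibroblast genes stood above both controls in each knockout, as did 21.5% of all tested rows. The fibroblast genes summed to 262 and 266 FPKM for the controls, 333 in knockout 1 and 685 in knockout 2. Vil1 itself stood at 317 and 314 FPKM in control libraries, 307 in knockout 1 and 276 in knockout 2.

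Profiles most like that of Cubn over the 4 libraries were those of Fzd10, a Wnt receptor, Hoxb8, a homeobox factor, and Tbx1, a T-box factor. Their distances from Cubn, over log2 values centred on the control mean, were 0.15, 0.26 and 0.26, the smallest among 12643 other protein-coding rows. Fzd10 stood at 40.4 and 40.2 FPKM in control libraries, and at 4.44 and 5.997 in the knockouts. The profile of Slc10a2 had no neighbour that close. Its nearest rows were Prl2c3 (1.20), Mep1a (1.37) and Prl2c2 (1.55). Mep1a, a brush border protease, stood at 72.7 and 69.6 FPKM in control libraries, 4.89 in knockout 1 and 26.7 in knockout 2, and the Prl2c rows are near-identical copies whose reads may be split between them.

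The rest of both pathways was described with 59 further genes, of which 58 had a row and 48 passed the filter. limma called 0 of the 48 in either direction, against 0.0729% of all tested rows. Before adjustment 11 of the 48 passed (p under 0.05), 2 of them higher and 9 lower. Of all 13716 tested rows, 1810 passed before adjustment (13.2%), 472 of them higher and 1338 lower, so most were lower there too. Without overlap, 20 lay below and 11 above the controls, where 30.2% and 21.5% of all tested rows did so.

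Genes that handle B12 after uptake had a higher median in knockout 2 than in knockout 1. Of 12 tested genes, 4 stood above both controls and 7 below in knockout 1, and 8 stood above and 3 below in knockout 2. Over these 12 tested genes the median log2 difference was 0.20, and 0 passed at an unadjusted p under 0.05. Their median was -0.11 in knockout 1 and 0.48 in knockout 2, against -0.11 and 0.09 over all tested rows. Abcc1, which exports B12 from cells, stood at 19.5 and 17.9 FPKM in control libraries, and at 15.1 and 12.7 in the knockouts (limma adjusted p = 0.420). Mmut, the mitochondrial enzyme that uses B12, stood at 9.58 and 9.65 FPKM in control libraries, 10.6 in knockout 1 and 19.9 in knockout 2, which was 2.07-fold above the control mean. Mmaa and Mcee, which act beside Mmut, had log2 differences of 0.46 (SE 0.296) and 0.36 (SE 0.239). The gene for intrinsic factor, Cblif (row GIF), was listed at 0 in both controls and read 0.179 and 0.116 FPKM in the knockouts.

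Proteins that work with cubilin and megalin varied in direction. Over 8 tested genes the median log2 difference was -0.10, with 1 higher and 2 lower at an unadjusted p under 0.05. Dab2, the endocytic adaptor of megalin, stood at 4.90 and 4.41 FPKM in control libraries, 3.87 in knockout 1 and 5.6 in knockout 2, and was picked after its value had been seen. Gipc1, an adaptor that links megalin to the motor Myo6, stood at 110 and 108 FPKM in control libraries, and at 71.6 and 49.1 in the knockouts (log2 difference -0.87, SE 0.248; limma adjusted p = 0.328). Myo6 stood the other way, at 25.6 and 23.9 FPKM in control libraries, and at 34.9 and 39.3 in the knockouts.

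**Figure D3:**
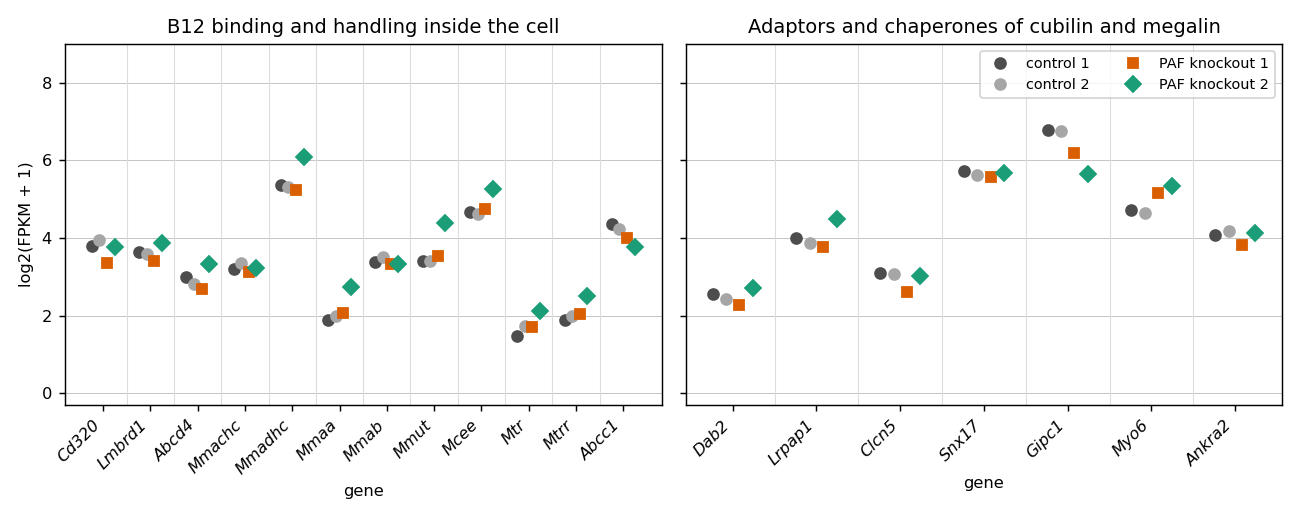
Level as log2(FPKM + 1), with 1 point per library, for genes that bind or handle B12 inside the cell (left) and for 7 adaptors and chaperones of cubilin and megalin (right). The median log2 difference was 0.20 for the group on the left, and Gipc1 lies below both controls in both knockouts.

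Carriers that move bile acids out of the cell were lower in both knockouts for Slc51a and Slc51b. Slc51a (row OSTA) stood at 128 and 123 FPKM in control libraries, 47.1 in knockout 1 and 64.9 in knockout 2 (log2 difference -1.17, SE 0.228; limma adjusted p = 0.269). Slc51b (row OSTB) stood at 115 and 126 FPKM in control libraries, 38.4 in knockout 1 and 71.7 in knockout 2 (log2 difference -1.18, SE 0.359; limma adjusted p = 0.338). The ratio of Slc51a to Slc51b was 1.11 and 0.973 in control libraries, 1.22 in knockout 1 and 0.905 in knockout 2. The exporter did not share the near loss of the importer in knockout 1, where the ratio of Slc10a2 to Slc51a was 0.0151, against 0.311 and 0.301 for the controls and 0.456 in knockout 2.

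Other carriers did not all share the direction of this pair. Abcc3, a basolateral exporter, stood higher, at 8.65 and 8.05 FPKM in control libraries and at 17.1 and 15.5 in the knockouts (log2 difference 0.89, SE 0.159; limma adjusted p = 0.255). Abcc4, another exporter of this family, stood at 22.5 and 22.3 FPKM in control libraries, and at 10.8 and 11.9 in the knockouts (log2 difference -0.93, SE 0.154; limma adjusted p = 0.243). Over the 7 tested carriers the median log2 difference was -1.17, against 0.00 over all tested rows, but the median was -0.57 in knockout 1 and -0.86 in knockout 2, both smaller in size. Of the 7, 1 was higher and 3 lower at an unadjusted p under 0.05. Abcb11 and Slc10a1, the bile acid carriers of hepatocytes, read at most 0.1 FPKM in every library.

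Partners of FXR, other nuclear receptors and the receptor of Fgf15 varied in size and direction. Over 7 tested genes the median log2 difference was -0.28, -0.14 in knockout 1 and -0.55 in knockout 2, with 1 lower at an unadjusted p under 0.05. Rxrb, which pairs with FXR, stood at 27.3 and 26.5 FPKM in control libraries, and at 19.9 and 18.1 in the knockouts (log2 difference -0.48, SE 0.155; limma adjusted p = 0.352). Its relative Rxra had a log2 difference of -0.28 (SE 0.176). Nr1i2, the xenobiotic receptor PXR, stood at 13.5 and 12.1 FPKM in control libraries, 22.6 in knockout 1 and 15.4 in knockout 2. Nr1i3 and Vdr were picked after their values had been seen, and set the knockout libraries apart from each other. Nr1i3, the related receptor CAR, stood at 1.71 and 1.49 FPKM in control libraries, 11.2 in knockout 1 and 0.498 in knockout 2. Vdr, the vitamin D receptor, stood at 23.7 and 26.0 FPKM in control libraries, 25.4 in knockout 1 and 12.3 in knockout 2. Fgfr4, the receptor of Fgf15, stood at 14.5 and 24.6 FPKM in control libraries, and at 13.9 and 11.1 in the knockouts, and the control libraries differed more from each other for it than the knockouts did.

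**Figure D4:**
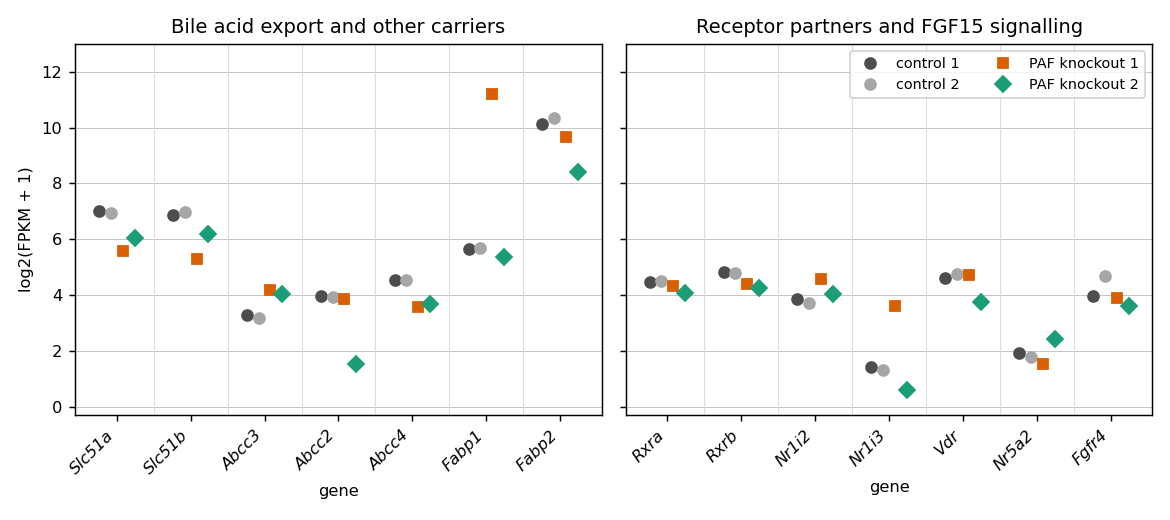
Level as log2(FPKM + 1), with 1 point per library, for carriers of bile acids and fatty acids (left) and for receptor partners of FXR with genes of FGF15 signalling (right). Slc51a and Slc51b lie below both controls in both knockouts, Abcc3 lies above, and Fabp1 is high in knockout 1 alone (2367 FPKM).

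Of 6 genes of bile acid synthesis and conjugation, a task of the liver, only Cyp27a1 and Cyp7b1 passed the filter. Cyp27a1, a mitochondrial sterol hydroxylase found in many tissues, stood at 29.4 and 30.4 FPKM in control libraries, and at 21.4 and 15.1 in the knockouts (limma adjusted p = 0.352). Cyp7b1 stood at 0.421 and 0.317 FPKM in control libraries, 0.514 in knockout 1 and 3.95 in knockout 2. Cyp7a1, the rate-limiting enzyme of the liver, was listed at 0 in 3 libraries.

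Factors of intestinal position had a median log2 difference of -0.12 over 12 tested genes, with 0 higher and 2 lower at an unadjusted p under 0.05. Gata6, which was among the lower ones, stood at 43.3 and 39.5 FPKM in control libraries and at 30.4 and 26.7 in the knockouts (limma adjusted p = 0.352). Gata5 and Onecut2 had log2 differences of -0.41 (SE 0.181) and -0.38 (SE 0.176). Apart from Gata4, the GATA factors thus stood below the controls in both knockouts and did not share its split.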

How the data were processed

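The authors deposited 1 table of FPKM values, in which depth and length are divided out, so no count test was used. The submitters' processing notes name TopHat2, Cuffdiff and mm9, but no versions, settings or annotation. Of 29955 rows, 84 repeats of a symbol were dropped (the row of higher mean stayed). Symbols were matched to RefSeq genes of GRCm38.p6 (of 13716 tested rows, 716 had no match). Approximate fragments rest on the longest GENCODE transcript and on the most common low value among single-transcript genes of at least 1000 bases.

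The fit used limma 3.58.1 (R 4.3.3) with a variance trend on log2(FPKM + 1), which understates differences of low genes, over rows averaging at least 1 FPKM. P-values were adjusted by Benjamini-Hochberg over all tested rows (threshold 0.05). Separate animals are not recorded, so p-values measure the spread between these samples only. Up to 4 tested genes of smallest p were named per pathway list, and others as picked afterwards; some genes of these lists are not reported here. The members and lists were chosen with earlier results of these data known. Alternatives varied the pseudocount, filter, scaling, variance trend and row class, left out each library, or added a replicate block.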

Additional observations from a re-analysis of the deposited data

How the results depend on the processing

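The number of rows called between genotypes, 10, was 4 with no filter and 0 among protein-coding rows alone (limma; 1778 at an unadjusted p under 0.05), and ranged from 0 to 8397 with 1 library left out. The lone knockout sample is then assumed to vary like the controls. For the 48 further pathway genes the count of 0 called (11 at an unadjusted p under 0.05) ranged from 0 to 32 with 1 library left out: 32 without knockout 1, 18 without knockout 2, and 0 without either control. Of these genes, 6 were under an unadjusted p of 0.05 with median centring or the replicate block, 7 with quantile scaling, 13 with epithelial scaling, and 0 without either control. The median of the bile acid carriers, -1.17, was -0.86 without knockout 1 and -0.57 without knockout 2. The median log2 difference of the 7 uptake genes that passed the filter, -1.75, ranged from -2.05 to -0.57 with 1 library left out, the latter without knockout 1. For Cubn it lay between -3.43 and -2.60 over 10 other settings and between -2.90 and -2.41 with 1 library left out. Without either knockout library Amn, Slc10a2, Fabp6 and Tcn2 also kept a negative difference. Fgf15, at 0.11, was -0.72 and -1.02 with pseudocounts of 0.1 and 0.01 and -0.05 with epithelial scaling. It stayed positive with median centring (0.17) and quantile scaling (0.08). Nr1h4, at 0.03, turned negative with epithelial scaling (-0.17) and with no other setting that kept all libraries. The filter, row class, variance trend and replicate block cannot change the difference of a gene, so its unchanged sign there carries no information.

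The replicate block gave 13 called rows and 0 called pathway genes. Whether same-numbered libraries were paired is not stated by the labels. The correlation of same-numbered deviations was -0.115, which cannot settle it, since the knockout libraries differed widely and in sex. Crossed pairing, chosen after seeing the data, gave 13 called rows. Of rows at an unadjusted p under 0.05, 26.1% were higher, against 44.4% with median centring and 42.5% with quantile scaling. Scaling to 6 epithelial genes, also chosen after seeing the data, shifted the median of all rows to -0.18 and gave 11 called rows and 10.2% higher among rows at an unadjusted p under 0.05. Depth limits Lrp2, Nr0b2 and Gpbar1, each with at most about 14 fragments in a library.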
